A study of Mus musculus with 6 samples.

Results

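The erythroid genes described here comprise regulators of red cell formation, enzymes and carriers of heme synthesis, and proteins of the red cell membrane and cytoplasm. They were chosen by gene symbol from a list of 36 genes, of which 34 were measured on a probe set that carries no other symbol, out of 19938 such genes in all. Ahsp and Epb41 were not analysed here. Tmod1 was the only member read by more than 1 such probe set, and the brighter one on average stands for it.

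Mouse bone marrow cells were transduced with a retroviral vector, sorted 72 hours later for its fluorescent reporter and profiled on arrays. One group of 3 arrays received MN1 in an MSCV vector with an internal ribosome entry site before the reporter. The other group of 3 arrays received the same kind of vector without MN1, and is called empty vector here. The samples' labels call the reporter GFP, while the series design calls it YFP and also states that the transductions were repeated as 3 independent experiments. The labels give no strain, sex, age or number of mice, no species for the MN1 cDNA and no marker-selected fraction of the marrow. Each array read 200 ng of total RNA from all sorted cells of a sample. MN1 is a transcriptional coregulator that is often highly expressed in myeloid leukaemia.

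Red cells form from marrow progenitors under the zinc finger factor Gata1, which acts with the Krüppel-like factor Klf1 and the repressor Gfi1b, while erythropoietin signals through its receptor, Epor. Maturing erythroblasts import iron through the transferrin receptor, make heme by a chain of mitochondrial and cytosolic enzymes that starts with Alas2 and ends with Fech, and assemble a spectrin skeleton that ankyrin ties to the anion exchanger Slc4a1. Gata1 and Gfi1b also serve megakaryocytes, and Gata1 serves mast cells and eosinophils, so neither marks red cell precursors alone.

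GATA sites are a well known feature of erythroid promoters, and 4 promoters with such a match are shown, from members whose groups did not overlap on the arrays. The sequences are from RefSeq (GRCm38.p6) and run over the 250 bases before the annotated start, 5′ to 3′ on the strand of the gene. Capitals mark a match to AGATAA or TGATAA on either strand, TTATCT and TTATCA being the same motifs read on the other strand.
Klf1, chr8:84901732-84901981, plus strand: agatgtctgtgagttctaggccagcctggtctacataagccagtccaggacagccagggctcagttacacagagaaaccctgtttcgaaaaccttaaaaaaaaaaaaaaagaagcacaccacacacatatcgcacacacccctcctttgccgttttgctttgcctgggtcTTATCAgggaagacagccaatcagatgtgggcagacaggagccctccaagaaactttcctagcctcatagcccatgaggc
Rhag, chr17:40810899-40811148, plus strand: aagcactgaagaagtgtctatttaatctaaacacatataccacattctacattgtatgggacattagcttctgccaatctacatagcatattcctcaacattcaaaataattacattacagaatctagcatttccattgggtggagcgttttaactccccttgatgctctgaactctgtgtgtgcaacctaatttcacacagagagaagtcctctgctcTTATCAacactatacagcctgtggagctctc
Ermap, chr4:119189996-119190245, minus strand: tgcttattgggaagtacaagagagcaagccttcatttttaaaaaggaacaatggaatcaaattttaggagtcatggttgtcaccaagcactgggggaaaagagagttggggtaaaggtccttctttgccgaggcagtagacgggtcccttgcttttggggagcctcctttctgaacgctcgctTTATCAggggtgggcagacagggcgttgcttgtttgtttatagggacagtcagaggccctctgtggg
Hemgn, chr4:46404184-46404433, minus strand: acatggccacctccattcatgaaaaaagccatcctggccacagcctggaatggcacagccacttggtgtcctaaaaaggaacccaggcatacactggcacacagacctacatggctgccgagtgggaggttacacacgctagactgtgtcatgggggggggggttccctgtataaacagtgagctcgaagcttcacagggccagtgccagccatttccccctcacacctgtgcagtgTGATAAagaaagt
The match began 80 bases before the start in Klf1, 31 in Rhag, 67 in Ermap and 13 in Hemgn. Of the 34 members, 27 had a promoter in the RefSeq table, with 31 starts in all. A match was present at 14 of these 31 starts, or 45.2%, against 16.6% of 32851 starts of all genes in windows of the same length. Tmod1 and Blvrb held no match in this window. The motif CCNCNCCC, bound by Klf1 and other Krüppel-like factors and overlapping the GC box where a free base is G and the other C, was searched on both strands. It occurred at 58.1% of the starts of members and 45.9% of all starts. A match is a stretch of letters and not a measured binding site. Car1 and Slc4a1 were among the members not in the table.

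The probe set of Mn1, the transduced gene, read above all empty vector arrays on each MN1 array. Mn1 measured 5.34, 5.41 and 4.80 on empty vector arrays 1 to 3 and 6.47, 6.62 and 6.08 on MN1 arrays 1 to 3. On the log2 scale used throughout, the difference was 1.20 ± 0.21 (SE), with an adjusted p of 0.584 (limma). Its mean over all arrays, 5.78, lay under the lowest array median, 5.82. The species of the MN1 cDNA is not given, and whether this probe set read the cDNA was not tested. As a check of the tissue, the marrow progenitor markers Ptprc, Kit, Cd34, Spi1, Mpo and Csf2rb had a mean of 11.16 to 11.75 on the 6 arrays. The arrays differed in the level of genes on the Y chromosome, which only cells of male mice transcribe. The mean of Eif2s3y, Kdm5d and Uty was 5.78, 3.78 and 7.04 on the empty vector arrays and 7.11, 6.12 and 7.57 on the MN1 arrays. Array medians lay between 5.82 and 6.01, and the correlation across probe sets was 0.974 to 0.987 within groups and 0.967 to 0.992 between them. Of the 34 members, 7 had a mean below the lowest array median, namely Alas2, Epb42, Rhag, Rhd, Kel, Cldn13 and Trim10. No detection call was available, so whether these probe sets read above background is unknown. The same is unknown for Add2, Hemgn, Ermap, Ank1, Slc4a1 and Klf1. Their means, 5.83 to 6.40, lay under the median level of all genes, 6.55.

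Between the groups, no erythroid gene differed after adjustment over all genes. By limma, 0 of 34 members had an adjusted p under 0.05, where 0% of all 19938 genes did, and the smallest adjusted p of any gene was 0.579. Of the members, 22 were lower and 12 higher with MN1. Their log2 differences had a median of -0.16, while over all genes the median was -0.03 and 56.7% were lower. At an unadjusted p under 0.05, 5 members were lower (14.7%) and 2 higher (5.88%), against 4.23% and 4.17% of all genes, or 8.40% in either direction. The lower members were Car1, Rhag, Ermap, Add2 and Tmod1, and the higher were Hemgn and Blvrb. The count of lower members was 1 without MN1 array 1, 3 without MN1 array 3 and 3 without empty vector array 1, and the count of higher members was 0 without MN1 array 1 and 1 without empty vector array 2. The median was -0.02 without MN1 array 1, -0.03 without empty vector array 1, -0.25 without MN1 array 2 and -0.29 without empty vector array 3. In RNA from mixed sorted cells, fewer cells of a type and less RNA per cell cannot be told apart.

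The groups did not overlap for 8 members. All 3 MN1 arrays lay below all empty vector arrays for 6 members, Klf1, Tmod1, Slc4a1, Rhag, Ermap and Car1, which is 17.6% of the members against 10.3% of all genes. They lay above for Hemgn and Blvrb, 5.88% of the members against 5.71% of all genes, and 16.0% of all genes did not overlap in either direction. The 6 lower genes comprise an erythroid transcription factor, a skeletal protein, 3 membrane proteins and a carbonic anhydrase, and none is an enzyme or a carrier of heme synthesis. Of the 34 members, 8 are heme enzymes, Blvrb included, and 3 are mitochondrial carriers. MN1 array 1 was the lowest of the 6 arrays for 15 of the 34 members, or 44.1%, and for 25.1% of all genes.

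**Figure D1:**
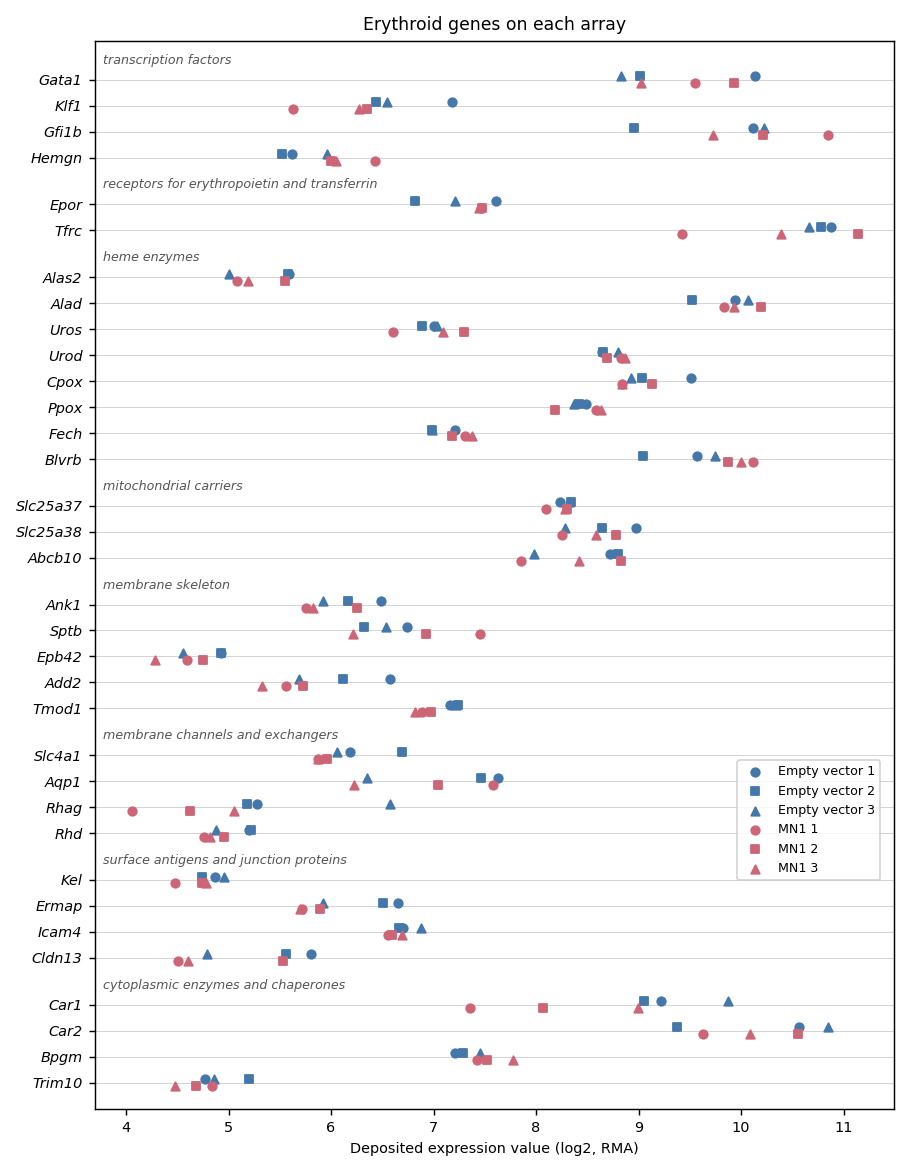
Deposited log2 expression value of each of the 34 erythroid genes on each array, with genes in rows grouped by role. Blue symbols are empty vector arrays and red symbols are MN1 arrays, with the shape giving the array number. Red lies wholly left of blue for 6 genes, Klf1, Tmod1, Slc4a1, Rhag, Ermap and Car1, and wholly right for Hemgn and Blvrb.

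Among the transcription factors, Klf1 was lower with MN1 while Gata1 was not separated by the groups. Klf1, the Krüppel-like factor that activates adult globin, heme and membrane genes, measured 7.18, 6.44 and 6.55 on the empty vector arrays and 5.63, 6.35 and 6.27 on the MN1 arrays. MN1 array 1 lay well below the rest, and the other MN1 arrays lay just under the lowest empty vector value. The log2 difference was -0.64 ± 0.27 (SE), with an adjusted p of 0.584 (limma). It was -0.41 without MN1 array 1 and -0.41 without empty vector array 1. Gata1, the factor that red cell precursors share with megakaryocytes, mast cells and eosinophils, measured 10.14, 9.01 and 8.83 with the empty vector and 9.55, 9.93 and 9.02 with MN1. The groups overlapped, and the difference of 0.18 ± 0.39 (SE) had a 95% interval of -0.77 to 1.12. The interval is wide on both sides of 0, and its bounds are what 3 arrays a group allow for Gata1.

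Gfi1b, a repressor needed for erythroid and megakaryocyte maturation, ran from 8.95 to 10.22 with the empty vector and from 9.72 to 10.84 with MN1, and the groups overlapped. Its log2 difference was 0.50 ± 0.42 (SE). Hemgn, a nuclear protein of blood-forming cells that Gata1 activates, measured 5.62, 5.52 and 5.96 with the empty vector and 6.43, 5.998 and 6.05 with MN1. Here the MN1 arrays lay on top, though MN1 array 2 was only just above empty vector array 3. The log2 difference of Hemgn was 0.46 ± 0.17 (SE), with an adjusted p of 0.584. Klf1 and Hemgn lay on opposite sides, and the promoter of each holds a GATA match, as shown above.

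The receptors showed no separation of the groups. Epor measured 7.61, 6.82 and 7.21 on the empty vector arrays and 7.46, 7.47 and 7.44 on the MN1 arrays. The MN1 values were nearly equal and lay inside the empty vector range, with a log2 difference of 0.24 ± 0.20 (SE) and a 95% interval of -0.24 to 0.72. Tfrc, the transferrin receptor through which erythroblasts and other dividing cells take up iron, measured 10.88, 10.78 and 10.66 with the empty vector and 9.42, 11.14 and 10.38 with MN1. The MN1 arrays spanned both the lowest and the highest value of the 6. The difference of -0.46 ± 0.40 (SE) was -0.01 without MN1 array 1.

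The enzymes of heme synthesis differed little between the groups. Alas2, which catalyses the first and rate-limiting step in erythroid cells and lies on the X chromosome, measured 5.59, 5.58 and 5.01 with the empty vector and 5.09, 5.55 and 5.19 with MN1. Empty vector array 3 and MN1 arrays 1 and 3 were lower than the other 3 arrays, so the groups overlapped, and the difference was -0.12 ± 0.21 (SE), with a 95% interval of -0.61 to 0.38. Of the later enzymes in pathway order, Alad differed by 0.14, Uros by 0.02, Urod by 0.10, Cpox by -0.22 and Ppox by 0.04, all with overlapping groups. Fech, the ferrochelatase that inserts iron into the finished ring, measured 7.21, 6.98 and 6.99 with the empty vector and 7.31, 7.18 and 7.37 with MN1. MN1 array 2 lay just below empty vector array 1 and the other MN1 arrays above it, and the difference was 0.23 ± 0.11 (SE), with an adjusted p of 0.594. The 95% intervals of these 7 enzymes reached no further than -0.65 and 0.57.

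Blvrb stood apart from the synthesis enzymes. It encodes biliverdin reductase B, a flavin reductase abundant in red cells that acts on the products of heme breakdown. Its values were 9.57, 9.04 and 9.75 on the empty vector arrays and 10.12, 9.87 and 9.996 on the MN1 arrays. All MN1 arrays lay above, and the log2 difference was 0.54 ± 0.20 (SE), or 1.46-fold, with an adjusted p of 0.584; it was 0.34 without empty vector array 2. For each of the mitochondrial carriers the groups overlapped. The iron importer mitoferrin 1, Slc25a37, differed by -0.08 ± 0.10 and the glycine carrier Slc25a38 by -0.09 ± 0.21 (SE). Abcb10, which stabilises mitoferrin 1, differed by -0.13 ± 0.32 (SE). The 95% intervals were -0.32 to 0.17 for Slc25a37, -0.61 to 0.42 for Slc25a38 and -0.89 to 0.63 for Abcb10. Intervals of this width do not show that the levels were equal.

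Within the membrane skeleton, 4 of 5 measured genes were lower with MN1. Tmod1, which caps the pointed ends of the short actin filaments, measured 7.16, 7.24 and 7.22 with the empty vector and 6.88, 6.97 and 6.82 with MN1. Both groups were tight and did not overlap, and the difference of -0.31 ± 0.09 (SE) had the smallest unadjusted p of the members, with an adjusted p of 0.584. Its other probe set measured 6.31 ± 0.31 (SD, n = 3) with the empty vector and 6.22 ± 0.53 with MN1, a difference of -0.09 with overlapping groups, so only the brighter probe set separates them. Add2, the beta adducin that joins spectrin to actin, measured 6.58, 6.12 and 5.69 with the empty vector and 5.56, 5.72 and 5.33 with MN1. Only empty vector array 3 and MN1 array 2 crossed, and the difference was -0.59 ± 0.24 (SE), or -0.37 without empty vector array 1. Ankyrin, Ank1, differed by -0.25 ± 0.20, Epb42, a skeletal protein bound to Slc4a1, by -0.26 ± 0.17, and the spectrin gene Sptb by 0.33 ± 0.31.

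The means of the 4 channels and exchangers were lower with MN1, Rhag by the most, and none passed adjustment. The levels of Rhag and Rhd lay under the lowest array median. Rhag, the ammonia channel that carries the Rh proteins to the surface, measured 5.28, 5.18 and 6.57 on the empty vector arrays and 4.05, 4.63 and 5.05 on the MN1 arrays. Empty vector array 3 was far above the rest and MN1 array 1 far below. The log2 difference was -1.10 ± 0.43 (SE), an adjusted p of 0.584, and -0.65 without empty vector array 3. Slc4a1, band 3, the anion exchanger and the anchor of the skeleton, measured 6.18, 6.69 and 6.05 with the empty vector and 5.87, 5.96 and 5.87 with MN1. The MN1 values were close together just under the empty vector values, and the difference was -0.41 ± 0.18 (SE), or -0.22 without empty vector array 2. Rhd, the Rh antigen, measured 5.20, 5.22 and 4.88 with the empty vector and 4.76, 4.96 and 4.82 with MN1. MN1 array 2 lay above empty vector array 3, and the difference was -0.25 ± 0.13 (SE). The water channel Aqp1 varied widely in both groups, from 6.35 to 7.63 with the empty vector and from 6.23 to 7.58 with MN1. Its difference was -0.20 ± 0.45 (SE), with a 95% interval of -1.28 to 0.89. It took the other sign without empty vector array 1 (0.0455), without MN1 array 3 (0.16), with a block for high and low Y-linked level (0.0247) and with the Y-linked mean as a covariate (0.24).

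The surface antigens and the claudin were lower too, 4 of 4, with the groups apart in Ermap alone. Ermap, an immunoglobulin-like membrane protein that carries the Scianna blood group in humans, measured 6.65, 6.51 and 5.92 with the empty vector and 5.72, 5.90 and 5.69 with MN1. Empty vector array 3 was only just above MN1 array 2, and the difference was -0.59 ± 0.20 (SE), with an adjusted p of 0.584. Cldn13, a claudin, differed by -0.50 ± 0.36, the metallopeptidase gene Kel by -0.19 ± 0.12 and the adhesion molecule gene Icam4 by -0.14 ± 0.10. These 3 had overlapping groups.

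Of the cytoplasmic proteins, Car1 had the largest difference of all members. This carbonic anhydrase, an early marker of the erythroid lineage, measured 9.22, 9.06 and 9.87 on the empty vector arrays and 7.35, 8.06 and 8.99 on the MN1 arrays. The highest MN1 array was just below the lowest empty vector array, and MN1 array 1 was again the lowest. The log2 difference was -1.24 ± 0.43 (SE), or 2.37-fold lower, with a 95% interval of -2.28 to -0.21 and an adjusted p of 0.584. Its size was -0.85 without MN1 array 1. Car2, the carbonic anhydrase that many cell types make, ran from 9.38 to 10.85 with the empty vector and from 9.63 to 10.55 with MN1, and differed by -0.18 ± 0.42. Bpgm, which makes the phosphate ester that lowers the oxygen affinity of haemoglobin, measured 7.21, 7.29 and 7.45 with the empty vector and 7.43, 7.52 and 7.77 with MN1. MN1 array 1 lay just under empty vector array 3, and the difference was 0.26 ± 0.13 (SE), with an adjusted p of 0.594. The ubiquitin ligase gene Trim10 differed by -0.28 ± 0.15.

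**Figure D2:**
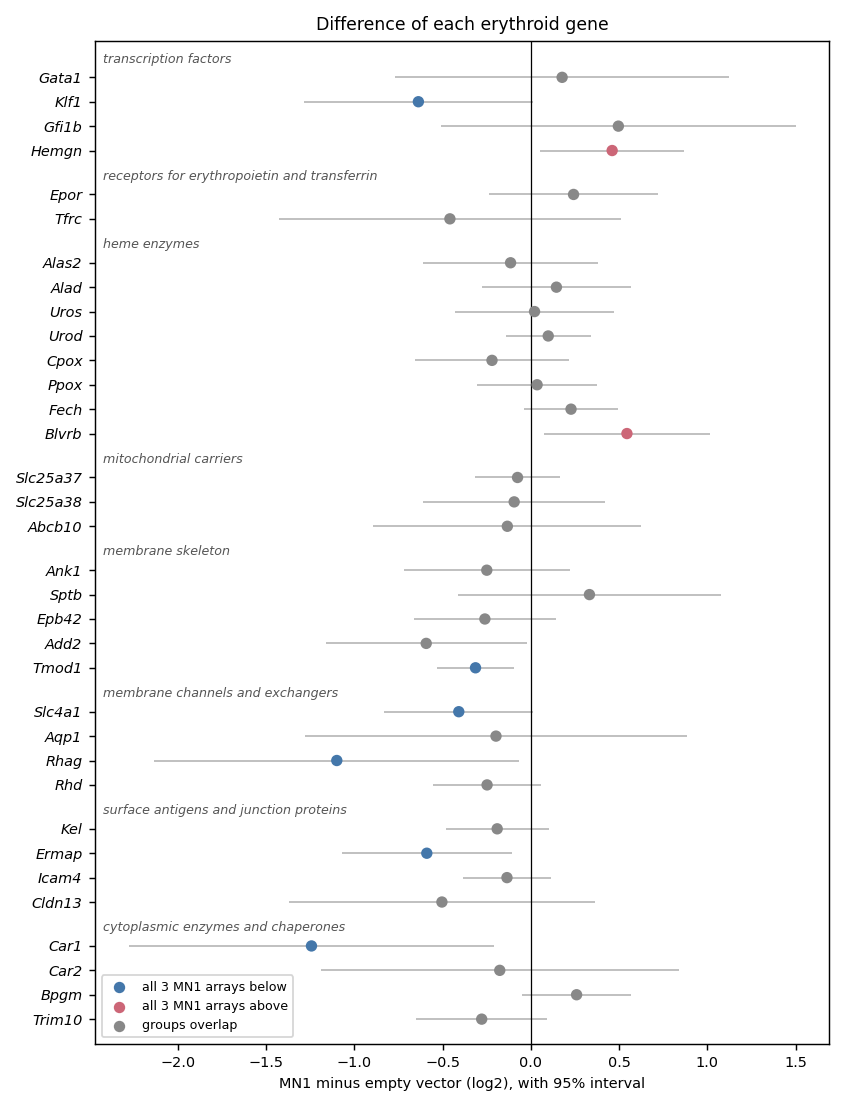
Log2 difference of each gene, MN1 minus empty vector, with its 95% interval from the limma fit, grouped by role. Blue and red points mark the genes whose MN1 arrays lie wholly below (6) or above (2), and grey points those that overlap. Channels, antigens and most skeletal genes lie left of 0, as do 56.7% of all genes, while 6 of 8 heme enzymes, Blvrb included, lie right of it. Of these enzymes Uros (0.02), Ppox (0.04) and Urod (0.10) lie close to 0. The interval holds 0 for 27 of the 34 genes.

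Several erythroid genes were split by sets of arrays that differ in the level of the Y-linked genes. The Y-linked mean was 3.78 to 6.12 on empty vector arrays 1 and 2 and MN1 array 2, and 7.04 to 7.57 on empty vector array 3 and MN1 arrays 1 and 3. In 10 of the 34 members (29.4%) the 3 arrays with less Y-linked RNA lay wholly above the other 3, as they did for 10.7% of all genes. The 10 genes were Tfrc, Alas2, Cpox, Slc25a38, Abcb10, Ank1, Epb42, Add2, Rhd and Cldn13. They lay wholly below in 1 member, Urod (2.94%, against 7.59% of all genes). This arrangement into sets was chosen after seeing the data, so the shares are a description with no test. The genes did not follow the Y-linked level within a set. Empty vector array 2 had the lowest Y-linked mean by far, yet 8 of the 10 genes were lower there than on empty vector array 1, Add2 at 6.12 against 6.58 among them. Epb42, at 4.9300 against 4.9306, and Alas2, at 5.583 against 5.587, were near ties. For Add2 the gap between the sets, 0.62, was close in size to the difference between MN1 and empty vector, -0.59.

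Cldn13, whose mean lay under the lowest array median, had the widest gap of these genes. It measured 5.80, 5.56 and 5.53 on the arrays with less Y-linked RNA, empty vector 1 and 2 and MN1 2, and 4.79, 4.51 and 4.60 on empty vector 3 and MN1 1 and 3. The means of the sets differed by 1.00 on the log2 scale, while MN1 and empty vector differed by -0.50. Abcb10 measured 8.72, 8.80 and 8.82 against 7.97, 7.85 and 8.42 in the same order, a gap of 0.70. The gap was 0.78 for Tfrc, 0.62 for Add2, 0.48 for Alas2 and 0.47 for Ank1. Alas2 itself, at 5.55 to 5.59 in the first set and 5.01 to 5.19 in the second, was nearly constant within each set.

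Some lists of markers of other cell types had means that differed between the same sets of arrays, and others did not. The mean of 14 granulocyte markers was 10.01 to 11.98 on the arrays with less Y-linked RNA and 8.68 to 9.23 on the others, and that of 7 eosinophil markers was 7.14 to 8.45 against 6.39 to 6.64. The mean of 9 B cell markers went the other way, at 5.89 to 6.53 against 7.28 to 7.78. Mast cell and basophil markers had means of 10.92 to 11.29 against 9.69 to 10.77. Gene by gene, 7 of 14 granulocyte, 4 of 7 eosinophil, 4 of 9 B cell and 4 of 10 mast cell and basophil markers split the same way as their list, and 1 mast cell and basophil marker split the other way. The sets overlapped in the means of the megakaryocyte list, at 8.49 to 10.25 against 9.13 to 10.99, the monocyte and macrophage list, at 8.80 to 9.47 against 9.35 to 9.97, and the T and NK cell list, at 5.34 to 5.67 against 5.34 to 5.89. Even so, 4 of 14 monocyte and macrophage markers lay wholly below on the arrays with less Y-linked RNA and 1 above. For T and NK cells 1 of 9 lay above, and for megakaryocytes 0 of 10 split. Over all genes, 10.7% lay wholly above on those arrays and 7.59% below. The part of these cells, or of the donors, in the level of the 10 genes was not tested.

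**Figure D3:**
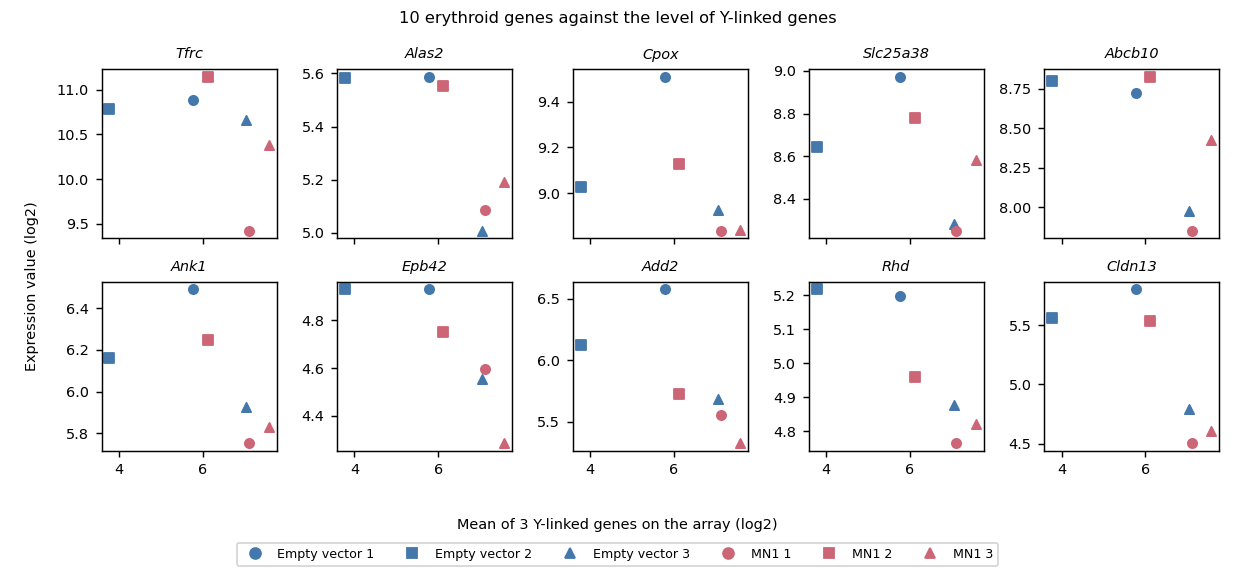
Log2 expression value of the 10 genes named above (vertical axes) against the mean log2 value of 3 Y-linked genes on the same array (horizontal axes), 1 panel a gene. Blue symbols are empty vector arrays and red symbols MN1 arrays. In each panel the 3 arrays at a Y-linked mean of 3.78 to 6.12 lie above the 3 at 7.04 to 7.57, whichever vector they carried.

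The difference between MN1 and empty vector was then taken within each set. MN1 lay below every empty vector array within both sets for 12 members (35.3%, against 17.0% of all genes) and above for 3 (8.82%, against 12.0%). The 12 were Klf1, Add2, Tmod1, Slc4a1, Rhag, Rhd, Kel, Ermap, Icam4, Cldn13, Car1 and Trim10, of which 9 encode membrane or skeletal proteins. None of the heme synthesis enzymes or carriers was among them. Of the 12, Rhag, Rhd, Kel, Cldn13 and Trim10 had means under the lowest array median, so whether they read above background is unknown. The same is unknown for Klf1, Add2, Slc4a1 and Ermap, whose means lay under the median level of all genes. Car1 differed by -1.07 in the set with less Y-linked RNA and by -1.69 in the other, Rhag by -0.60 and -2.02, and Klf1 by -0.46 and -0.60. Tfrc and Car2 took opposite signs in the sets, at 0.31 and -0.76 for Tfrc and 0.58 and -0.99 for Car2. MN1 has a lone array in the first set and the empty vector in the second, so these values have no replicate error of their own.

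With the sets as a block in the limma fit, 19 members were lower and 15 higher, and 54.4% of all genes were lower. At an unadjusted p under 0.05, 4 members were lower (11.8%, against 2.99% of all genes) and 1 higher (2.94%, against 3.57%); 0 members passed adjustment, where 0% of all genes did. The 4 were Car1, Rhag, Ermap and Tmod1, and the higher 1 was Hemgn. The blocked difference was -1.38 ± 0.46 (SE) for Car1 and -1.31 ± 0.41 for Rhag, each with an adjusted p of 0.750. With the Y-linked mean as a covariate in place of the block, differences moved both ways. Slc4a1 differed by -0.16 in place of -0.41, Ermap by -0.37, Hemgn by 0.29 and Blvrb by 0.26, each nearer 0, and Tmod1 by -0.28. Car1 differed by -1.62, Rhag by -1.59 and Klf1 by -0.67, each farther from 0 than without the covariate.

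**Figure D4:**
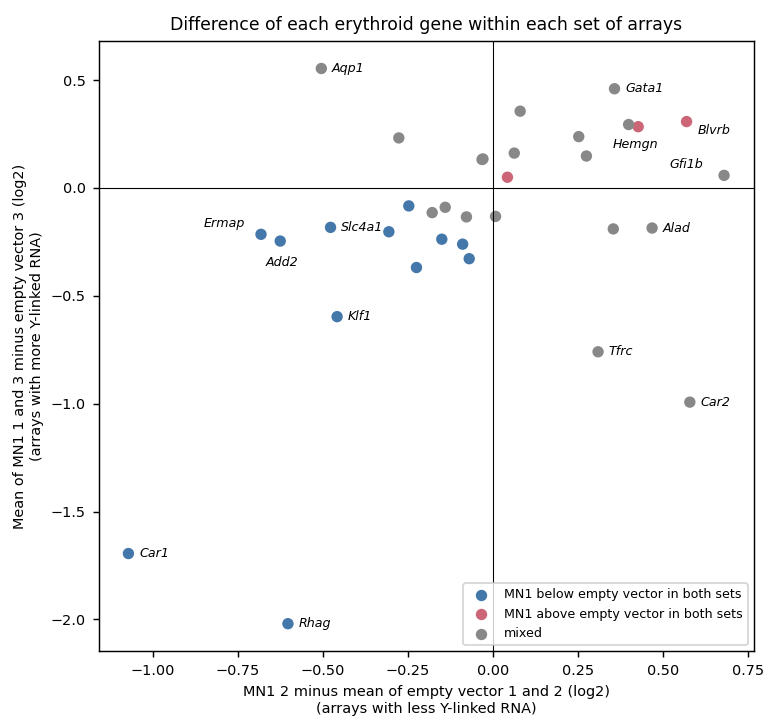
Log2 difference of each of the 34 genes, MN1 minus empty vector, among the 3 arrays with less Y-linked RNA (horizontal axis) and among the 3 with more (vertical axis). Blue points are the 12 genes with MN1 below every empty vector array in both sets, red points the 3 with MN1 above, and grey points the rest. Car1 and Rhag lie farthest into the lower left, and Car2 and Tfrc lie at the lower right.

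Markers of the lineages that share Gata1 with red cells had 0 genes with an adjusted p under 0.05 (limma). At an unadjusted p under 0.05 they had 0 of 10 for megakaryocytes, 0 of 10 for mast cells and basophils and 3 of 7 for eosinophils. Over all genes 8.40% passed that unadjusted p. The list means of the groups overlapped for each of these lineages. All 10 measured megakaryocyte markers were higher with MN1, with list means of 8.49 to 9.78 on the empty vector arrays and 9.13 to 10.99 on the MN1 arrays. Of 10 mast cell and basophil markers 9 were lower, with list means of 10.77 to 11.29 and 9.69 to 10.94, and all 7 eosinophil markers were lower, at 6.64 to 8.45 and 6.39 to 7.14. MN1 array 1, the lowest for Car1, Klf1, Rhag and Tfrc, had the highest megakaryocyte mean, 10.99, and the lowest mast cell and basophil mean, 9.69. It was also the highest of the 6 arrays for Gfi1b at 10.84, Hemgn at 6.43, Sptb at 7.45 and Blvrb at 10.12. Monocyte and macrophage markers were higher in 10 of 14, and their list means of 9.47 to 9.97 with MN1 lay above the 8.80 to 9.35 with the empty vector. Granulocyte markers were lower in 13 of 14, with list means of 8.68 to 11.98 with the empty vector and 9.22 to 10.01 with MN1. T and NK cell markers were lower in 7 of 9, at 5.50 to 5.89 and 5.34 to 5.46. At an unadjusted p under 0.05 (limma), 6 of 14 monocyte and macrophage markers were higher. At the same p, 3 of 9 T and NK cell markers and 1 of 14 granulocyte markers were lower, and 0 of 9 B cell markers passed. The part of these values in the erythroid values was not tested.

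**Figure D5:**
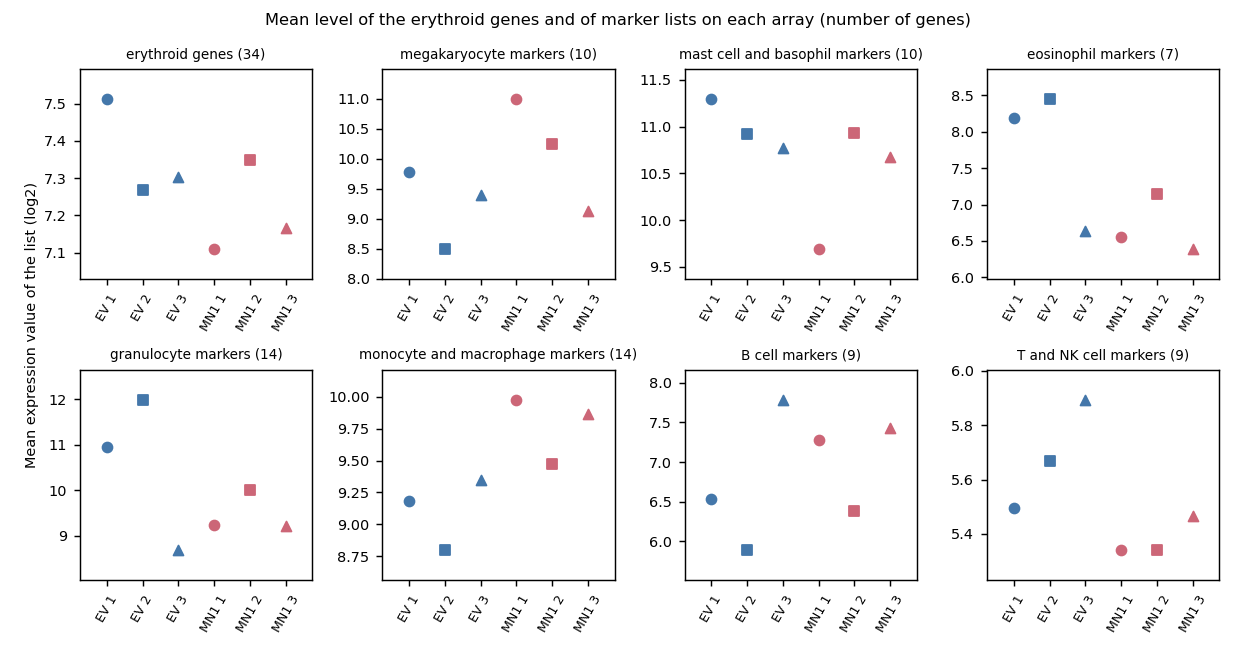
Mean log2 expression value of the 34 erythroid genes and of 7 lists of markers of other cell types on each array, 1 panel a list, with the number of genes in brackets. Blue symbols are empty vector arrays (EV) and red symbols MN1 arrays, and each panel has its own vertical scale. MN1 array 1 is lowest for the means of the erythroid and the mast cell lists and highest for the megakaryocyte list, while by the median over the 34 erythroid genes, 7.33, it is the highest of the 6 arrays.

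Further genes of red cell biology, taken from lists of related genes, gave no call either. Of 105 listed, 92 were measured, and 53 were higher and 39 lower with MN1. Their log2 differences had a median of 0.04, and 0 had an adjusted p under 0.05 (limma). At an unadjusted p under 0.05, 3 were higher (3.26%, against 4.17% of all genes) and 5 lower (5.43%, against 4.23%). The groups did not overlap for 6 above (6.52%, against 5.71%) and 8 below (8.70%, against 10.3%), so these shares were near those of all genes. Adult globin genes lie on probe sets with several symbols and were not named. Of the 3 embryonic globin genes measured, Hbb-bh1 and Hba-x lay below the empty vector arrays, with log2 differences of -0.23 ± 0.10 and -0.22 ± 0.11 (SE), and Hbb-y differed by 0.01 ± 0.10. The mean over all arrays was 4.04 for Hbb-bh1, 5.68 for Hba-x and 4.37 for Hbb-y, each under the lowest array median, 5.82. Whether these globin probe sets read above background is unknown.

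Of 14 other heme genes, 11 were higher and 3 lower. In 4 of the 14 all MN1 arrays lay above, against 6.52% of the related genes together and 5.71% of all genes. The named ones are the biliverdin reductase Blvra, the heme oxygenase Hmox2 and the porphyrin exporter Abcg2. Blvra differed by 0.40 ± 0.12, Hmox2 by 0.37 ± 0.11 (SE) and Abcg2 by 0.70 ± 0.30, each with an adjusted p of 0.584 (limma). Among 9 other iron genes 7 were higher and 2 lower. The iron exporter Slc40a1 differed by -1.14 ± 0.48 and the iron importer Slc11a2 by 0.63 ± 0.27, both with overlapping groups, and the ferritin gene Ftl1 by 0.26 ± 0.14.

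Of 17 other erythroid regulators, 9 were higher and 8 lower. Lmo2, the adaptor that joins Gata1 to its partner Tal1, was higher on every MN1 array by 0.49 ± 0.12 (SE), and E2f2, a cell cycle factor, differed by -0.76 ± 0.29 with overlapping groups. Of 17 other membrane genes, 9 were higher and 8 lower. Art4, which carries the Dombrock blood group in humans, differed by -0.45 ± 0.11 and the actin-bundling protein gene Dmtn differed by -0.41 ± 0.14, with all MN1 arrays below. In erythropoietin signalling 3 of 11 were higher and 8 lower. Jak2, the kinase bound to Epor and to many other receptors, differed by -0.47 ± 0.14, with all MN1 arrays below. Of 21 late erythroid genes 13 were higher and 8 lower, among them the red cell pyruvate kinase Pklr at -0.50 ± 0.21, Tspan33 at -0.51 ± 0.22 and Fbxo7 at 0.27 ± 0.13.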

How the data were processed

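RNA of 3 MN1 and 3 empty vector samples was hybridised to one-colour Affymetrix whole-transcript arrays, per the labels' protocols. The values are log2 expression per probe set, deposited by the authors and RMA is the tool the submitters' processing notes name. Its version, and which arrays it normalized together, is not given in the sources used here. RMA draws dim values together, which can understate a difference where the transcript is present. Of 35557 probe sets, 21789 carry 1 symbol in the 2016 platform annotation, 1621 carry several and 12147 none. All 6 value columns were used. Of several probe sets of a gene, the one with the highest mean was kept.

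Groups and numbers come from the sample titles. Whether replicates came from separate animals is stated only as independent experiments, and p-values measure the spread between these arrays. The test was limma (3.58.1, R 4.3.3), lmFit and eBayes, two-sided, adjusted by Benjamini-Hochberg over 19938 genes at a threshold of 0.05, with 4 residual and 2.43 prior degrees of freedom. The members and lists were chosen with earlier results of these data known. Every member is named. Values on every array are given for members with non-overlapping groups or an unadjusted p under 0.1 and for Gata1, Klf1, Epor, Tfrc, Alas2 and Slc4a1, and at most 3 genes with the smallest p are named per related list. The alternatives were a replicate block, 2 scalings, a filter on dim genes, averaged probe sets, another prior, array weights, arrays left out, and terms for Y-linked level. The last were added after seeing the data, except for a block set at the midpoint of the Y-linked range.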

Additional observations from a re-analysis of the deposited data

How the results depend on the processing

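Dim probe sets have no detection call, and the number of arrays limits the precision. No gene, and so no member, passed an adjusted p under 0.05 in limma under any alternative run, and 25 of 34 members kept their direction in each of them that held the gene (the filter on dim genes drops Alas2, Epb42, Rhag, Rhd, Kel, Cldn13 and Trim10). Whether the replicate numbers pair the samples is not settled. The correlation of their deviations was 0.13, 0.07 and 0.32 for the same numbers. Empty vector 1 correlated best with MN1 array 2 (0.44). Empty vectors 2 and 3 correlated best with MN1 array 3 (0.09 and 0.32). With the replicate block the count of lower members at an unadjusted p under 0.05 was 6 in place of 5, and 0 genes were called. Members lower at that p numbered 2 with the Y-linked covariate, and 1 to 5 with an array left out. Those higher numbered 1 with the Y-linked block, 1 with the block at the midpoint, which holds empty vector array 2 alone, 0 with the covariate, and 0 to 3 with an array left out. Members below numbered 7 to 12, and those above 2 to 5, when an array was left out. With fewer arrays the groups of any gene separate more easily. The share of all genes was not counted there, so these counts say nothing particular to the members. The directions that turned belong to small differences, and the cause was not tested. With the Y-linked block the difference was 0.0501 for Alas2, -0.0223 for Ppox, 0.0527 for Slc25a38, 0.11 for Abcb10 and 0.0247 for Aqp1. With the covariate it was 0.14 for Alas2, -0.0028 for Alad, -0.0299 for Ppox, 0.0518 for Slc25a38, 0.23 for Abcb10 and 0.24 for Aqp1. With the midpoint block it was -0.0155 for Alad, -0.0239 for Uros and 0.0167 for Abcb10. It was -0.0426 for Uros and -0.0611 for Ppox after quantile normalization, and -0.0172 for Ppox with array weights. With an array left out it ran from -0.0721 to 0.58 for Gata1, -0.02 to 0.26 for Alad, -0.13 to 0.22 for Uros, -0.0475 to 0.18 for Ppox, -0.27 to 0.0742 for Slc25a38, -0.40 to 0.12 for Abcb10, -0.60 to 0.16 for Aqp1 and -0.62 to 0.12 for Car2.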
